A study of Mus musculus with 26 samples.

Results

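OT-1 and TG6 thymocytes carry different transgenic T cell receptors (TCRs), and their transcriptomes were compared at 1 stage, the mature CD8 single-positive (CD8SP) thymocyte. The comparison used 6 of the 26 RNA-seq libraries of the series, namely 3 OT-1 and 3 TG6 libraries, which the series calls biological replicates. Of 46517 gene symbols, 16372 reached a value of 10 in 2 or more libraries of the series, and all of these were tested. OT-1 mice were OT-1tg Rag2KO of strain C57/BL6. TG6 mice were TG6tg H2b/d (C57/BL6 x B6.C-H2d/bByJ), so they carried 1 H2d haplotype and kept Rag genes. Both populations were sorted as CD4-CD8+CXCR4-CCR7+ cells. The labels state neither the age nor the sex of the mice. Each line therefore differs from the other in its TCR, in H2 haplotype, in Rag genotype and in strain, and these cannot be told apart in this comparison. The third transgenic line, F5 on a Rag1KO background, was sorted by the same gate and its 3 mature CD8SP libraries are quoted as a reference where stated.

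CD8 T cells develop in the thymus from double-positive (DP) thymocytes whose TCR binds self-peptide on MHC class I. That binding, called positive selection, sends the cell through a series of TCR signals, after which it stops recombining its receptor genes, loses CD4, changes its chemokine receptors from CXCR4 to CCR7 and prepares to leave for the blood. The strength of the signal that a receptor gets from self-ligands is called its self-reactivity and is tracked by CD5, a surface protein that dampens TCR signalling, and by Nur77, the product of the immediate early gene Nr4a1. OT-1 is a receptor of high and TG6 a receptor of low self-reactivity in the study's design. Maturing thymocytes also pass through a stage of interferon signalling and of rising MHC class I, and some divide again before they leave.

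The leading receptor segments differed between the lines. Trbv12-1, the beta segment of the OT-1 transgene, made up 99.98%, 99.98% and 99.97% of all Trbv values in OT-1 replicates 1 to 3. In TG6, Trbv1 took 90.2%, 91.0% and 93.3%, and Trbv13-1 took 8.90%, 8.14% and 6.28%. Among alpha segments, the near-identical Trav14d-1 and Trav14n-1 each held between 49.1% and 49.3% in OT-1, while Trav6-7-dv9 led in TG6 with 32.9%, 33.6% and 34.8%. The alpha repertoire was wider in TG6: 79, 73 and 63 Trav segments had a value of at least 10 in its replicates, against 8, 10 and 8 in OT-1. Rag2, disrupted in OT-1 mice, still gave values of 10.9, 8.64 and 35.9 in OT-1 and 25.8, 34.5 and 224 in TG6, so its RNA does not check the genotype. Cd8a was high in all 6 libraries (18710 to 31943), Cd4 was low (62.8 to 461) and Ccr7 was between 7341 and 12719, whereas Cxcr4, the other gate marker, was still present as RNA at 1219 to 3316. Xist was at 36874 to 41938 and Ddx3y at 1.66 or less in all 6 libraries, and Kdm5d, a Y-linked gene, was read at 51.7 to 54.0 in OT-1 and 64.7 to 127 in TG6 (-0.76 ± 0.23, limma adjusted p = 0.041, a call lost in 5 of the 6 fits that leave out 1 library).

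Values are the authors' normalized counts: estimated read counts per gene divided by a size factor of each library. They were compared on the log2(value + 1) scale with limma over all 26 libraries, with Benjamini-Hochberg (BH) adjustment over the 16372 genes, and every adjusted p below comes from these fits. A gene is called when its adjusted p is under 0.05. All differences are OT-1 minus TG6, so that a positive log2 difference is a higher value in OT-1, and ± is a standard error. The libraries summed to between 17092146 and 18944173 normalized counts.

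TG6 replicate 3 stood apart from its group. Across the genes tested, log2 values correlated at 0.977 (Pearson, across genes of 2 libraries, which are not independent replicates) between TG6 replicates 1 and 2, but at 0.953 and 0.950 between replicate 3 and these, no higher than the 0.944 to 0.959 found between lines. OT-1 replicates correlated at 0.972 to 0.978. Replicate 3 differed from replicates 1 and 2 by more than 1 on the log2 scale in 3596 and 3971 genes, where replicates 1 and 2 differed from each other in 1481 and the OT-1 pairs in 1600 to 2103. For 10850 of 16372 genes it lay nearer to the OT-1 mean than to the mean of the other TG6 libraries. Of all 16372 genes it was above both other TG6 libraries for 6678 and below both for 7188. Of 19 tested genes of preselection DP thymocytes it was above both for 12 and below both for 6, and of 9 tested markers of double-negative thymocytes above both for 7 and below both for 1. Those markers summed to 10271 in it against 7710 and 7730 in TG6 and 7161 to 8762 in OT-1. Rag1, part of the recombinase, was 5265 in it and 696 and 620 in the other TG6 libraries, Ptcra, the pre-TCR alpha chain, was 787 against 94.9 and 94.5, and Dntt, which adds bases at receptor joints, was 7845 against 1596 and 1267. A list of 11 dendritic cell markers, all 11 of them above both other TG6 libraries, summed to 3040 in replicate 3 against 1474 and 1392 in TG6 and 973 to 1470 in OT-1. The 1 of them that was called, the dendritic cell chemokine receptor Xcr1, was lower in OT-1, at 13.4, 34.4 and 33.3 against 58.6, 46.7 and 98.6 (-1.34 ± 0.40, limma adjusted p = 0.037), a call lost without TG6 replicate 1 or 3 or OT-1 replicate 1 (adjusted p = 0.090, 0.078 and 0.19). In bulk RNA a different share of cells and a different amount of RNA per cell cannot be told apart, and the part of immature or other cells in this library was not tested. The counts are therefore given with and without it, and a gene named below was called in both fits or in neither unless its values or a stated loss say otherwise.

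With all 6 libraries, 1595 of 16372 genes were called, 764 higher and 831 lower in OT-1, which is 9.74% of genes (4.67% higher and 5.08% lower). Without TG6 replicate 3, 4446 were called (27.2%), of which 2454 were higher (15.0%) and 1992 lower (12.2%). In both fits 1523 genes were called, all in the same direction, 72 were called only with all libraries and 2923 only without replicate 3. In 2773 of those 2923 genes replicate 3 was nearer to the OT-1 mean, against 10850 of all 16372 genes. Selecting genes by leaving that library out favours this outcome, so the count is no separate result. The 3 values of a line lay wholly above or below those of the other in 3547 genes (21.7%), 1396 of them called. The fit without TG6 replicate 1 called 745 genes and that without replicate 2 called 734, while leaving out OT-1 replicates 1, 2 and 3 gave 971, 903 and 1195. A gene named below as higher or lower was also called in each of these 6 fits unless a loss is stated. The difference between the lines at this stage was not that of the earlier ones for all genes: as an interaction in limma, it differed from that at early positive selection in 687 genes (4.20%) and from that at late positive selection in 192 (1.17%), and in 1153 and 532 genes without TG6 replicate 3. A fit to the 6 libraries alone, with 4 residual degrees of freedom, called 270 genes.

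**Figure D1:**
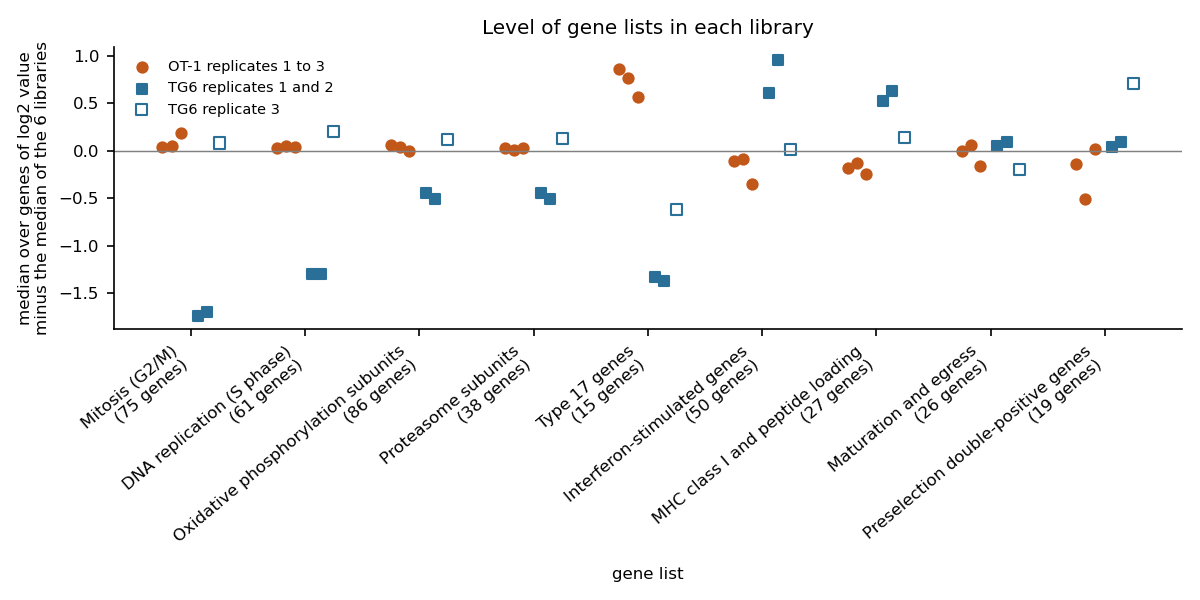
Level of 9 gene lists in each mature CD8SP library, as the median over the genes of a list of the log2 value minus that gene's median in the 6 libraries (vertical axis, log2). TG6 replicate 3 (open squares) was level with OT-1 (circles) for the mitosis list, at 0.08 against 0.03 to 0.19, where TG6 replicates 1 and 2 (filled squares) were at -1.74 and -1.70.

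RNA of the CD5 gene was higher in OT-1. Cd5 values were 5892, 5750 and 6186 in OT-1 and 3302, 2877 and 2952 in TG6, with no overlap (log2 difference 0.97 ± 0.18, limma adjusted p = 0.0015; 0.95 ± 0.21, adjusted p = 0.0021 without TG6 replicate 3). F5 lay between the lines, at 3515, 5022 and 3912. Cd6, a relative of Cd5 next to it on chromosome 19, was higher in OT-1 by a smaller difference (0.50 ± 0.11, adjusted p = 0.0066), a call lost under quantile normalization (adjusted p = 0.066). Nr4a1, by contrast, split the TG6 libraries: it was 5010, 3848 and 2518 in OT-1, 1063 and 988 in TG6 replicates 1 and 2, and 6859 in TG6 replicate 3, above every OT-1 library. Its difference was not called with all libraries (0.92 ± 0.69, adjusted p = 0.42) and was called without replicate 3 (1.83 ± 0.64, adjusted p = 0.040). Genes of stress and heat shock, some of which rise when tissue is dissociated, had a like order of libraries: their list level was -0.53 and -0.44 in TG6 replicates 1 and 2, 0.13 in TG6 replicate 3 and 0.02 to 0.20 in OT-1. Of 18 such genes 1 was called higher with all libraries and 5 without TG6 replicate 3, with medians of 0.39 and 0.54, and their part in the Nr4a1 values was not tested.

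Of 23 genes of the TCR signal response, which are transcription factors and surface proteins induced by receptor signals, 4 were called higher and 0 lower in OT-1, with a median log2 difference of 0.28, against -0.01 over all genes tested. At an unadjusted p under 0.05 it was 5 and 0, where 13.2% of all genes tested were higher and 12.4% lower by that rule. The called genes were Irf4, Cd44, Cd5 and Cd6, and without TG6 replicate 3 the count was 5 and the median 0.28. Irf4 encodes a transcription factor whose level follows TCR signal strength, and its values were 1558, 1974 and 1354 in OT-1 against 359, 448 and 414 in TG6 (1.99 ± 0.28, limma adjusted p = 5.2e-05). Cd44, an adhesion receptor of activated and memory cells, was 505, 535 and 445 in OT-1 and 141, 132 and 111 in TG6 (1.95 ± 0.21, adjusted p = 9.7e-07). F5 had Cd44 values of 124, 126 and 127, level with TG6, and Irf4 values of 129, 54.8 and 71.2, below TG6. Cd44 lies 1.18 Mb from Rag2 on chromosome 2, so that an allele carried along with the Rag2 knockout cannot be told apart from the other differences between the lines; of 43 tested genes within 5 Mb of Rag2, 3 were called (6.98%), against 10.1% of all genes with a known position, and without TG6 replicate 3 the shares were 16.3% and 27.6%. Cd69, another induced surface protein, did not separate the lines, at 1082, 1273 and 2747 in OT-1 and 1476, 1840 and 1283 in TG6 (0.04 ± 0.32, adjusted p = 0.95).

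Among 31 genes that attenuate the TCR signal, 2 were called higher with all libraries, and 10 higher and 2 lower without TG6 replicate 3. Ubash3b, the phosphatase Sts-1, was the clearest: 1032, 1034 and 845 in OT-1 and 426, 346 and 316 in TG6, with F5 between them at 597, 431 and 677 (1.42 ± 0.18, limma adjusted p = 1.7e-05). Csk, the kinase that holds Lck inactive, was 8305, 8380 and 8637 against 6945, 6498 and 6309 (0.36 ± 0.07, adjusted p = 0.0023), again lost under quantile normalization (adjusted p = 0.055). Of the 14 phosphatases and feedback genes of the ERK pathway grouped within this list, which do not include Ubash3b, 0 were called with all libraries and 7 without replicate 3, while the 17 kinases, ubiquitin ligases and adaptors, Ubash3b among them, went from 2 higher to 3 higher and 2 lower (at an unadjusted p under 0.05, 11 of the 31 genes of the whole list were higher and 2 lower with all libraries, where 13.2% and 12.4% of all genes were, and 8 and 5 were higher without TG6 replicates 1 and 2). Dusp5, an ERK phosphatase, had, like Nr4a1 and the stress genes, low values in TG6 replicates 1 and 2, with 4792, 3836 and 2567 in OT-1, 630 and 574 in TG6 replicates 1 and 2 and 4044 in TG6 replicate 3 (1.67 ± 0.79, adjusted p = 0.19; 2.58 ± 0.78, adjusted p = 0.018 without it).

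Of 21 kinases and adaptors that act next to the receptor, 2 were higher and 5 lower in OT-1, and 1 and 10 without TG6 replicate 3. Plcg1, the phospholipase that starts calcium signalling, was 5782, 4978 and 5411 in OT-1 and 8673, 8577 and 5598 in TG6 (-0.47 ± 0.13, limma adjusted p = 0.020). Lcp2, the adaptor SLP-76, was 4558, 4661 and 5672 against 8186, 7160 and 5417 (-0.47 ± 0.14, adjusted p = 0.039), so that its groups overlapped. For both genes TG6 replicate 3 was the lowest TG6 library, and without it the differences were -0.68 (adjusted p = 3.7e-05) and -0.63 (adjusted p = 0.0015). Both calls were lost when either of the other TG6 libraries was left out (adjusted p = 0.14 to 0.24), that of Plcg1 also without OT-1 replicate 2 (0.094) and that of Lcp2 also without OT-1 replicate 1 or 2 (0.14 and 0.13). The count of lower members of this list was 0 and 0 without TG6 replicates 1 and 2 (5 and 5 of 21 at an unadjusted p under 0.05, where 8.67% and 8.90% of all genes were lower). It was 1, 0 and 3 without OT-1 replicates 1, 2 and 3. Malt1, which links the receptor to NF-kappaB, was higher in OT-1 (0.70 ± 0.15, adjusted p = 0.0034). The 8 constant and CD3 chains of the receptor had 0 calls by limma (1 higher and 1 lower at an unadjusted p under 0.05), with a median of -0.02, and 1 of them was lower without TG6 replicate 3.

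Transcripts of both CD8 chains were lower in OT-1. Cd8a was 18710, 20413 and 20657 in OT-1, 31943 and 30826 in TG6 replicates 1 and 2, and 21298 in TG6 replicate 3, just above OT-1 (-0.47 ± 0.12, limma adjusted p = 0.016; -0.66 ± 0.10, adjusted p = 6.7e-05 without replicate 3). Cd8b1 was 10426, 11731 and 10208 against 19994, 18280 and 11760 (-0.59 ± 0.15, adjusted p = 0.012; -0.83 ± 0.12, adjusted p = 3.2e-05). F5 values of Cd8a (24422 to 29840) and Cd8b1 (14746 to 17906) fell between OT-1 and TG6 replicates 1 and 2. The Cd8a call was lost without TG6 replicate 1 (adjusted p = 0.13), TG6 replicate 2 (0.11) or OT-1 replicate 1 (0.073), and the Cd8b1 call without TG6 replicate 1 (0.10) or 2 (0.080). Cd4 did not separate the lines (-0.35 ± 0.50, adjusted p = 0.70).

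Among 20 lineage transcription factors 4 were higher and 1 lower in OT-1, and 5 and 2 without TG6 replicate 3. Tox2, an HMG-box factor, was 904, 568 and 1117 in OT-1 and 130, 56.5 and 328 in TG6 (2.62 ± 0.42, limma adjusted p = 0.00025), with F5 at 97.6, 128 and 110. Gata3, which is needed for positive selection and favours the CD4 lineage, was 1212, 963 and 1851 against 631, 437 and 969 (1.00 ± 0.26, adjusted p = 0.019). The lowest OT-1 library was just under the highest TG6 library, and the Gata3 call was lost without TG6 replicate 1, TG6 replicate 2 or OT-1 replicate 3 (adjusted p = 0.071, 0.15 and 0.11). Runx3, the factor of the CD8 lineage, was 3918, 3433 and 2622 in OT-1 and 3509, 4256 and 6235 in TG6 and was not called (-0.47 ± 0.31, adjusted p = 0.36). Of 7 markers of the CD4 lineage and regulatory T cells, 1 was higher and 2 were lower in both fits. Cd40lg, the CD40 ligand of helper T cells, was the higher one, at 133, 112 and 132 in OT-1 and 12.1, 9.15 and 5.92 in TG6 (3.70 ± 0.48, adjusted p = 2.1e-05). Foxp3, the factor of regulatory T cells, was at 3.01, 3.20 and 4.13 in OT-1 and 25.5, 35.2 and 19.2 in TG6, low in both (-2.60 ± 0.43, adjusted p = 0.00035), and Ikzf4 was 71.4, 85.7 and 67.0 against 285, 320 and 303 (-2.01 ± 0.28, adjusted p = 5.2e-05).

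**Figure D2:**
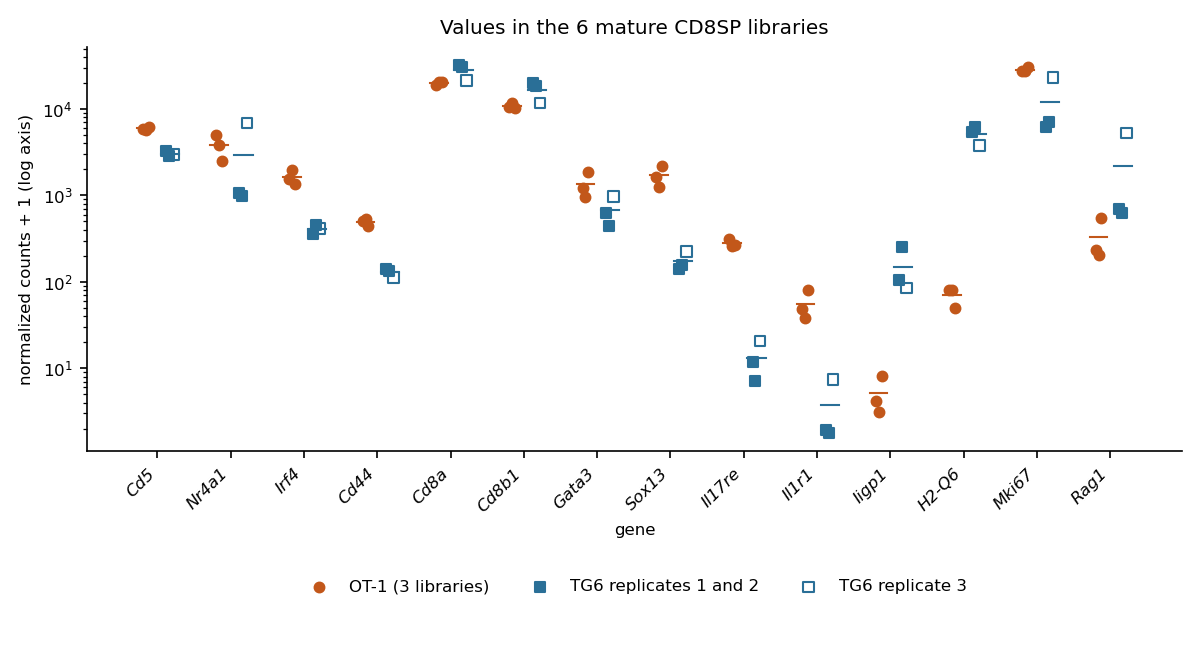
Normalized counts + 1 (logarithmic vertical axis) of 14 genes in the 6 mature CD8SP libraries, with horizontal bars at group means. Cd5, Irf4, Cd44, Sox13, Il17re and Il1r1 were higher in the 3 OT-1 libraries than in the 3 TG6 libraries and H2-Q6 and Iigp1 were lower, whereas for Nr4a1, Mki67 and Rag1 TG6 replicate 3 (open squares) lay far above the other TG6 libraries.

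Of 26 genes of maturation and egress, 2 were called higher and 4 lower, with a median of 0.02, and without TG6 replicate 3 it was 3 and 8 with a median of -0.08. Klf2, the factor that drives egress genes, was 10465, 12695 and 8061 in OT-1 and 5883, 6993 and 5776 in TG6 (0.72 ± 0.50, limma adjusted p = 0.39). The lines did not overlap for Klf2, nor for its target S1pr1, the egress receptor, at 11710, 12612 and 9139 against 7746, 7883 and 5543 (0.67 ± 0.43, adjusted p = 0.35), nor for Il7r, the receptor of the survival cytokine IL-7, at 1868, 2471 and 1774 against 1162, 1383 and 852 (0.86 ± 0.44, adjusted p = 0.22). None of these 3 passed the test in either fit, which pools the spread of all groups of the series. Il6ra, a cytokine receptor chain of late thymocytes, was higher in OT-1, at 3399, 3880 and 2974 against 1448, 1737 and 1300 (1.19 ± 0.27, adjusted p = 0.0069). The lower members included the MHC genes H2-Q6 and H2-Q7, described below. TG6 replicate 3 was under both other TG6 libraries for 24 of the 26 genes of this list.

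Genes of the preselection DP stage, before selection begins, were in part lower in OT-1 at this late stage: 1 of 19 was higher and 6 lower, with a median of -0.65. Of 11 that the study chose from other data, 1 was higher and 5 lower (3 and 6 without TG6 replicate 3). Slc6a19, an amino acid transporter, was 109, 111 and 53.0 in OT-1 and 1140, 1054 and 299 in TG6, with F5 at 624, 489 and 490 (-3.03 ± 0.37, limma adjusted p = 8.0e-06). Tdrd5, better known from germ cells, was 39.5, 18.1 and 57.1 against 232, 196 and 128 (-2.35 ± 0.44, adjusted p = 0.0012), and Wdr78, a protein of motile cilia, was 190, 121 and 225 against 634, 458 and 352 (-1.43 ± 0.27, adjusted p = 0.0014). For these 3 genes the lines did not overlap and TG6 replicate 3 was the lowest TG6 library. The recombination and pre-TCR genes went the other way in that library, and Rag1 was not called, at 233, 203 and 545 in OT-1 against 696, 620 and 5265 in TG6 (-2.15 ± 0.88, adjusted p = 0.13). Plxnd1, a semaphorin receptor that guides thymocytes, was the 1 higher member (0.96 ± 0.21, adjusted p = 0.0046). Without TG6 replicate 3 the median of the list was -0.35, with 3 higher and 7 lower.

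Type 17 genes, the receptors, factors and cytokines of lymphocytes that make IL-17, had the highest median difference of the gene lists examined. The lists were chosen with earlier results of these data known, so this rank and the counts below are a description only. Of 20 genes 15 were tested, and 9 of them were called higher and 0 lower in OT-1 (11 and 1 at an unadjusted p under 0.05), with a median of 2.04. Without TG6 replicate 3 the counts were 11 and 1 and the median 2.07, and each of the other 5 fits without 1 library called 9. The count was 6 in the fit to the 6 libraries alone. Among receptors, Il17re, part of the IL-17C receptor, was 313, 258 and 269 in OT-1 and 10.7, 6.12 and 19.6 in TG6 (4.55 ± 0.37, limma adjusted p = 1.8e-08). Il1r1, the IL-1 receptor, was 47.2, 37.4 and 80.0 against 0.946, 0.784 and 6.44 (4.17 ± 0.59, adjusted p = 6.1e-05). The neighbouring Il17rc ranged widely in OT-1, at 202, 133 and 39.5, and was 1.32, 1.19 and 2.96 in TG6 (5.25 ± 0.83, adjusted p = 0.00021).

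Further called members were the transcription factors Sox13 and Maf, the kinase Blk and the cytokine Il17f. Sox13, a factor of IL-17-producing gamma delta T cells, was 1645, 1243 and 2209 in OT-1 and 142, 154 and 223 in TG6 (3.28 ± 0.42, limma adjusted p = 1.7e-05), and F5 was lower still, at 39.9, 96.1 and 39.7. Maf, which supports the same program, was 665, 528 and 852 against 82.3, 72.8 and 53.9 (3.27 ± 0.32, adjusted p = 4.0e-07), with F5 at 64.7, 31.9 and 46.4. Blk, a Src family kinase known from B cells and gamma delta T cells, was 443, 319 and 393 against 59.6, 60.0 and 185 (2.12 ± 0.46, adjusted p = 0.0047). The cytokine gene Il17f was low, at 88.0, 80.3 and 61.5 against 27.3, 20.8 and 9.46 (2.04 ± 0.41, adjusted p = 0.0023), and Il17a and Il22 stayed under the filter.

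Some markers of gamma delta T cells were also higher in OT-1. Of 7 tested markers of gamma delta and NKT cells 3 were called higher, and 4 without TG6 replicate 3. They include Sox13, which is also a member of the Type 17 list, and the summed value of the whole list was 9901 to 11442 in OT-1 and 2317, 2431 and 5132 in TG6. Cd163l1, the scavenger receptor SCART1 of gamma delta cells, was 3902, 3111 and 3071 in OT-1 and 450, 421 and 1029 in TG6 (2.52 ± 0.37, limma adjusted p = 0.00010), with 136, 154 and 159 in F5. Trdc, the constant segment of the delta chain, was 5331, 5256 and 5408 against 1544, 1603 and 3143 (1.43 ± 0.19, adjusted p = 3.4e-05), but F5, which was low for Sox13, Maf and Cd163l1, had the highest values, 7239, 7240 and 6760. OT-1 and F5, both above TG6 for Trdc, are Rag-deficient, whereas TG6 kept Rag genes. Zbtb16, the defining factor of NKT cells, was at 3 or less in all 6 libraries. The part of such cells in these differences was not tested.

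Of 26 tested cytokine receptors outside that list 2 were higher and 1 lower in OT-1, and 4 and 2 without TG6 replicate 3, with medians of 0.26 and 0.18. Il18r1, the IL-18 receptor, was 1102, 901 and 821 in OT-1 and 102, 131 and 52.8 in TG6 (3.38 ± 0.33, limma adjusted p = 4.0e-07). Tnfrsf1a, a receptor of TNF, was the lower one, at 656, 592 and 666 against 1089, 1402 and 894 (-0.80 ± 0.14, adjusted p = 0.00059). Of 16 tested chemokine receptors, 4 were higher and 1 lower in either fit, with medians of 0.01 and -0.11. Ccr4 was 1749, 1523 and 1945 against 339, 309 and 345 (2.38 ± 0.17, adjusted p = 1.4e-09) and Ccr2, at lower level, 54.5, 61.2 and 59.6 against 10.02, 14.6 and 14.2 (2.11 ± 0.35, adjusted p = 0.00041). Of 30 effector and memory genes 5 were higher and 1 lower, and 7 and 1 without TG6 replicate 3. Lgals1, the lectin galectin-1, was 4238, 4272 and 2945 against 1101, 1171 and 2272 (1.40 ± 0.27, adjusted p = 0.0018). Xcl1, a chemokine made by CD8 T cells, was the lower one, at 1.03, 6.26 and 1.01 in OT-1 and 42.4, 62.0 and 34.5 in TG6 (-3.89 ± 0.48, adjusted p = 8.0e-06), and all F5 libraries listed it at 0. Among costimulatory and inhibitory receptors 3 of 28 were higher and 3 lower (3 and 4 without TG6 replicate 3), and the inhibitory receptor Tigit was 323, 377 and 148 against 45.4, 66.1 and 49.3 (2.29 ± 0.43, adjusted p = 0.0014).

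Most interferon-stimulated genes had lower values in OT-1, and a part of them was called. Of 50 tested, 24 were called lower and 0 higher (36 and 0 at an unadjusted p under 0.05), with a median of -0.69, and without TG6 replicate 3 it was 35 and 0 with a median of -0.95. Only 2 of the 50 had a higher mean in OT-1, in either fit. For 47 of the 50 all 3 OT-1 libraries lay below TG6 replicates 1 and 2. TG6 replicate 3 lay below both in 47, against 7188 of all 16372 genes. With all 3 TG6 libraries the lines did not overlap in 26 of the 50, against 21.7% of all genes tested. As a list level (the median over genes against the median of the 6 libraries) OT-1 was at -0.11, -0.08 and -0.36, TG6 replicates 1 and 2 at 0.61 and 0.96, and replicate 3 between them at 0.02. The number of calls depended on each library: it was 7 and 5 without TG6 replicates 1 and 2, 11, 14 and 15 without OT-1 replicates 1 to 3, and 4 in the fit to the 6 libraries alone. The median of the list stayed between -0.52 and -0.95 across all these fits.

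Iigp1, an interferon-inducible GTPase, had the widest gap of the list, at 3.15, 2.13 and 7.22 in OT-1 and 105, 249 and 83.6 in TG6 (-4.79 ± 0.77, limma adjusted p = 0.000255). Ifit3, an antiviral protein, was 207, 282 and 151 against 860, 1088 and 452 (-1.86 ± 0.35, adjusted p = 0.0014). In both genes the lines did not overlap, and TG6 replicate 3 was the lowest TG6 library. F5 was below OT-1 for Ifit3 (10.1, 14.2 and 17.1), so that the order of the lines was F5, OT-1 and TG6 from low to high. Usp18, a feedback inhibitor of the type I interferon receptor, was 185, 102 and 185 in OT-1, 495, 701 and 283 in TG6 and 13.7, 32.1 and 39.0 in F5 (-1.60 ± 0.44, adjusted p = 0.025). That call was lost without TG6 replicate 1, TG6 replicate 2 or OT-1 replicate 2 (adjusted p = 0.093, 0.15 and 0.13).

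Most, but not all, genes of MHC class I and its peptide loading machinery were lower in OT-1 as well: 16 of 27 genes were called lower and 1 higher, with a median of -0.52 (19 lower, 2 higher and -0.72 without TG6 replicate 3). The count of lower genes was between 12 and 14 in the fits without 1 of the other 5 libraries, and 6 in the fit to the 6 libraries alone. The classical genes H2-K1 and H2-D1 were 11955, 12420 and 9078 against 21960, 24661 and 14616 (-0.85 ± 0.16, limma adjusted p = 0.0012) and 10965, 12730 and 9027 against 24293, 26956 and 15491 (-1.003 ± 0.16, adjusted p = 0.00017). In both the lines did not overlap. Nlrc5, the transactivator of class I genes on chromosome 8, was 3585, 3464 and 2415 against 7771, 9981 and 5360 (-1.26 ± 0.21, adjusted p = 0.00030). F5 was below OT-1 for all 3 of these genes, with H2-K1 at 5100 to 5469, H2-D1 at 6567 to 7358 and Nlrc5 at 1481 to 1704. B2m, the light chain shared by class I molecules, was 16671, 18280 and 15272 in OT-1, 26720 and 28405 in TG6 replicates 1 and 2 and 10716 in TG6 replicate 3, and was called only without that library (-0.27 ± 0.24, adjusted p = 0.51; -0.72 ± 0.16, adjusted p = 0.0019). Pdia3, a chaperone of peptide loading, was the higher member (0.39 ± 0.12, adjusted p = 0.037), a call lost without TG6 replicate 1 or 2 or OT-1 replicate 2 or 3 (adjusted p = 0.19, 0.17, 0.056 and 0.18) and under total scaling (0.094) and quantile normalization (0.20).

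The widest differences lay in nonclassical class I genes. H2-Q6 was 79.8, 78.4 and 49.4 in OT-1 and 5400, 6247 and 3751 in TG6 (-6.19 ± 0.41, limma adjusted p = 6.3e-10). H2-Q10 was 274, 234 and 248 against 2705, 3151 and 1884 (-3.32 ± 0.20, adjusted p = 9.2e-11), and H2-Q7, which encodes the maturation marker Qa-2, was 2339, 2335 and 1616 against 10478, 14394 and 7547 (-2.34 ± 0.28, adjusted p = 5.8e-06). TG6 mice carried an H2d haplotype beside H2b, and these genes are near-identical copies of each other, so that reads of one may be counted for another and single values are uncertain. All 20 called genes whose symbol begins with H2 were lower in OT-1, of 30 tested, and all 21 without TG6 replicate 3. Around the H2 region, 57 of 248 tested genes within 5 Mb of H2-K1 to H2-D1 on chromosome 17 were called (22.98%, 12 higher and 45 lower), against 10.1% of 15168 genes with a known position (38.3% against 27.6% without TG6 replicate 3). The 57 include called H2 genes of the previous count, so these counts are not separate. Of the MHC class I list, 14 of 18 members in this window were lower, and outside it 2 of 9 were lower and 1 higher (15, 4 and 2 without TG6 replicate 3). None of the 50 interferon-stimulated genes lies in the window (0 of 50).

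**Figure D3:**
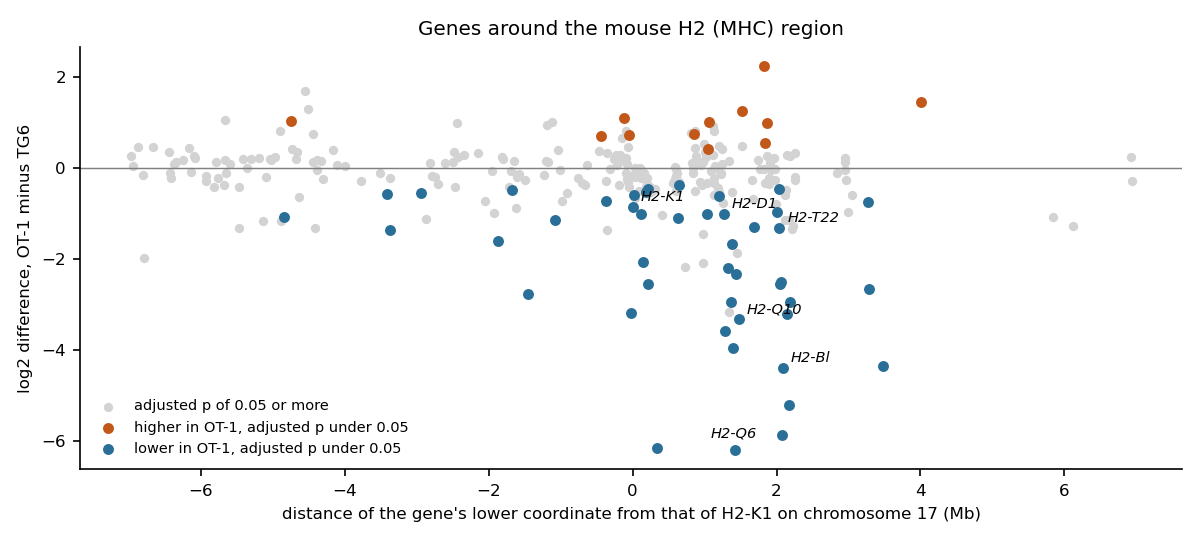
Log2 difference between OT-1 and TG6 (vertical axis) of tested genes against their distance in Mb from H2-K1 on chromosome 17 (horizontal axis), coloured by whether the gene was called higher or lower. Genes called lower, among them H2-Q6 at -6.19 and H2-Q10 at -3.32, outnumber those called higher around the H2 genes.

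Promoter windows are shown for genes from the lists that are lower in OT-1, because they share letters of the interferon-stimulated response element (ISRE), the site of STAT and IRF factors, and for a mitosis gene that was higher. Each window runs from 250 bases before to 50 bases after a RefSeq start site in GRCm38.p6. The motif searched for, on both strands, was its core GAAA, any 2 bases and GAAA again, or on the other strand TTTC, any 2 bases and TTTC. It was chosen after the values had been seen. The core was in 24 of 44 windows of the interferon-stimulated genes (54.5%), in 4 of 22 of the MHC class I list (18.2%), and in 3.09% of the 13215 windows of 10390 tested genes that had one. Windows of all genes called lower in both fits held it in 6.57% and those of genes called higher in 3.04%. Capitals mark the match in the windows of Ifit3 (chr19:34583279-34583578, plus strand), Irgm2 (chr11:58214727-58215026, plus strand) and H2-T22 (chr17:36042693-36042992, minus strand).
Ifit3: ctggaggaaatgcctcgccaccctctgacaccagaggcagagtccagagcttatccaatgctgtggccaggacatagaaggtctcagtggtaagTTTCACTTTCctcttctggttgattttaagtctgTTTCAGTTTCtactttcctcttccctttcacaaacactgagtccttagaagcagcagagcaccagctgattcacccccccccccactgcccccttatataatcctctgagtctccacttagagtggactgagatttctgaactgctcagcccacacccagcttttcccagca
Irgm2: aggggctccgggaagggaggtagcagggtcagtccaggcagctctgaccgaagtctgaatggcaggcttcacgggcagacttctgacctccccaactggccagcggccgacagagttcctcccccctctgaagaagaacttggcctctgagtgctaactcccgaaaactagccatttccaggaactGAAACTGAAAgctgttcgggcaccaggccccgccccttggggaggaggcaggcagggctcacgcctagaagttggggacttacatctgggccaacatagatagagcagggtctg
H2-T22: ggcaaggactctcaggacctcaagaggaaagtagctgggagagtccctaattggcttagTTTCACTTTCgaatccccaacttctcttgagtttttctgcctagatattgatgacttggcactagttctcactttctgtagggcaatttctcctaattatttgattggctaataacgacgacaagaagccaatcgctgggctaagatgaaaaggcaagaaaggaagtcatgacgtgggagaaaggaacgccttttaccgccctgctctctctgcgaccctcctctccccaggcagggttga
Irgm2, another interferon-inducible GTPase, was 284, 273 and 258 in OT-1 and 747, 993 and 603 in TG6 (-1.49 ± 0.22, limma adjusted p = 8.3e-05). H2-T22, a nonclassical class I molecule that some gamma delta TCRs bind, was 2046, 1990 and 1657 against 3888, 4375 and 6129 (-1.32 ± 0.12, adjusted p = 1.6e-07), and for it TG6 replicate 3 was the highest library. A match is a description of letters and not a measured site.

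For genes of DNA replication and mitosis TG6 replicate 3 was level with OT-1 and apart from the other TG6 libraries. With all libraries 19 of 61 replication (S phase) genes and 14 of 75 mitosis (G2/M) genes were higher in OT-1, and 0 were lower in either list, with medians of 0.85 and 1.25. At an unadjusted p under 0.05 there were 44 and 51 higher and 0 lower. Without replicate 3 it was 56 of 61 and 62 of 75, with medians of 1.40 and 1.83. Replicate 3 was above both other TG6 libraries in 61 of 61 and 75 of 75 genes. In list level OT-1 was at 0.03 to 0.05 for replication and 0.03 to 0.19 for mitosis, TG6 replicates 1 and 2 at -1.30 and -1.30, and -1.74 and -1.70, and replicate 3 at 0.21 and 0.08. The counts fell when other libraries were left out. Replication calls were 1 and 0 without TG6 replicates 1 and 2 and 5, 3 and 7 without OT-1 replicates 1 to 3, mitosis calls were 3 and 4 and then 8, 6 and 9, and both were 0 in the fit to the 6 libraries alone, where 17 and 44 were higher at an unadjusted p under 0.05, as were 8.28% of all genes.

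Mki67, the proliferation marker Ki-67, was 27362, 27701 and 30471 in OT-1 and 6220, 7129 and 23175 in TG6. The lines did not overlap, yet the gene was called in neither fit (1.497 ± 0.77, limma adjusted p = 0.23; 2.10 ± 0.83, adjusted p = 0.065 without replicate 3). Racgap1, which acts in cytokinesis, was 5436, 5914 and 5185 against 1356, 1539 and 4265 (1.41 ± 0.30, adjusted p = 0.0040; 1.93 ± 0.22, adjusted p = 3.3e-06). E2f1, the factor that opens S phase, was 1787, 1831 and 1453 in OT-1 and 569, 527 and 1468 in TG6, where replicate 3 reached the lowest OT-1 library (1.14 ± 0.26, adjusted p = 0.0073). The E2f1 call was lost without TG6 replicate 1 or 2 (adjusted p = 0.065 and 0.069).

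The promoter of Racgap1 is shown because it holds the core of the cell cycle homology region (CHR), TTTGAA or TTCAAA, which is known from genes of mitosis. This core was in 49 of 70 windows of the mitosis list (70%), in 9 of 52 of the replication list (17.3%) and in 12.3% of all windows. Capitals mark the match (GRCm38.p6, chr15:99651607-99651906, minus strand).
Racgap1: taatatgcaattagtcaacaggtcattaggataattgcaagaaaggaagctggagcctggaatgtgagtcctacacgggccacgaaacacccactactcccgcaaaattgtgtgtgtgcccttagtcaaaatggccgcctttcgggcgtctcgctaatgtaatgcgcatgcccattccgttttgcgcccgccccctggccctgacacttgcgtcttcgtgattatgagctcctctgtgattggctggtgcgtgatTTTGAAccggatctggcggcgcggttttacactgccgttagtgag

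Large families of housekeeping genes had smaller differences, and their counts are read against the 4.67% of all genes called higher with all libraries and the 15.0% without TG6 replicate 3. Of 86 nuclear subunits of oxidative phosphorylation 8 were higher with all libraries and 62 without TG6 replicate 3, and 0 were lower in both, with medians of 0.30 and 0.52. Without TG6 replicates 1 and 2 the count was 0 and 0 (15 and 9 of 86 at an unadjusted p under 0.05, where 8.51% and 7.93% of all genes were higher by that rule), and it was 1, 0 and 5 without OT-1 replicates 1, 2 and 3. Of 38 proteasome subunits 4 and 30 were higher (medians 0.28 and 0.50), and of 77 mitochondrial ribosomal proteins 3, a share under that of all genes, and 41 (0.26 and 0.44), with 1 lower in each fit. Leaving out 1 of the other 5 libraries left 0 or 1 proteasome subunit higher and 0 mitochondrial ribosomal proteins (6 to 18 of 38 and 3 to 12 of 77 at an unadjusted p under 0.05, where 7.93% to 11.2% of all genes were higher). The 83 cytosolic ribosomal proteins had 6 and 28 higher and medians of 0.14 and 0.21, which came down to 0.05 under scaling to the library total, where the median of all genes was -0.10, and to 0.02 under quantile normalization, where that of all genes was -0.01. The higher count of this family was 1 and 1 without TG6 replicates 1 and 2 and 2, 2 and 4 without OT-1 replicates 1, 2 and 3. Ldha, the lactate dehydrogenase subunit of glycolysis, was 14036, 14046 and 14267 in OT-1, 7553 and 7497 in TG6 replicates 1 and 2 and 13406 in replicate 3 (0.63 ± 0.16, limma adjusted p = 0.015), a call lost without TG6 replicate 1 (0.12) or 2 (0.12). Its partner subunit Ldhb differed the other way, at 537, 495 and 554 against 833, 770 and 1380 (-0.86 ± 0.16, adjusted p = 0.0013).

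**Figure D4:**
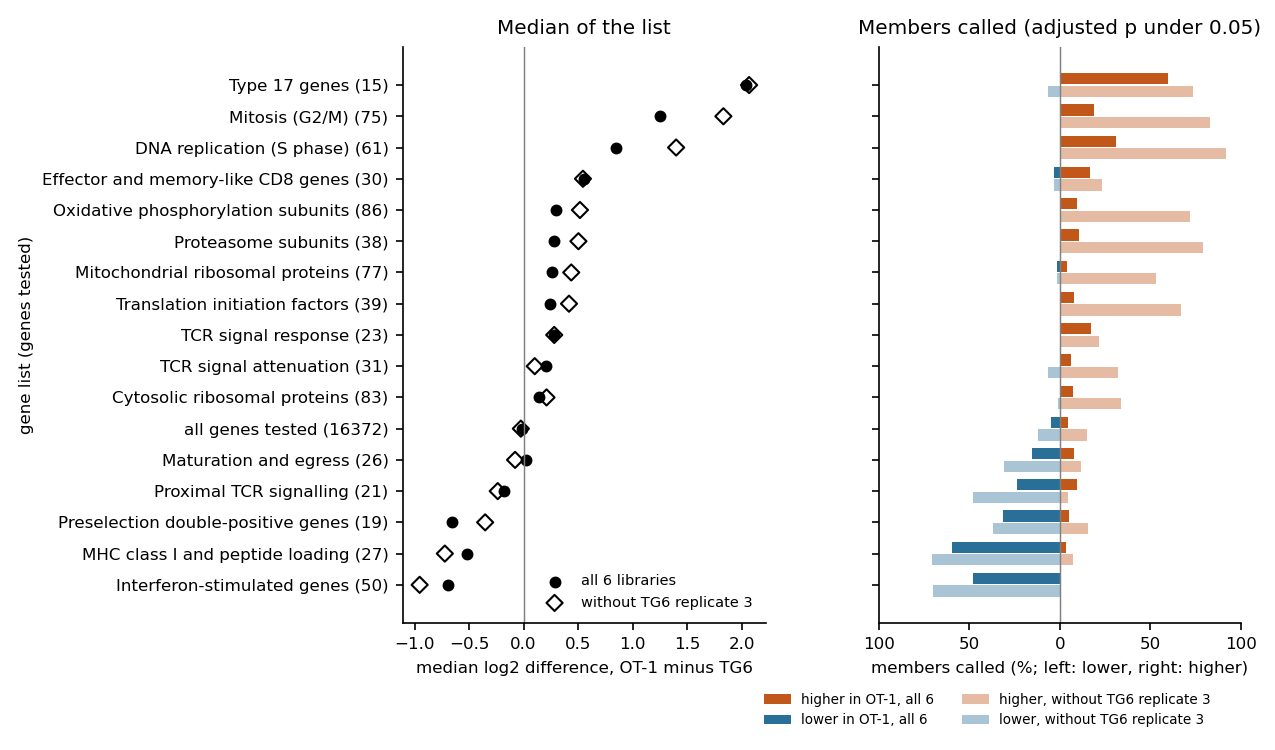
Left, median log2 difference OT-1 minus TG6 of gene lists with all 6 libraries (filled) and without TG6 replicate 3 (open). Right, percent of tested members called higher (to the right) or lower (to the left) in each fit. The interferon and MHC class I lists had most calls on the lower side, and the cell cycle, oxidative phosphorylation and proteasome lists gained calls on the higher side once TG6 replicate 3 was left out.

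Among genes of survival and death, 2 of 27 were higher and 5 lower in OT-1, and 4 and 6 without TG6 replicate 3. Bmf, a BH3-only protein that promotes apoptosis, was 294, 508 and 327 in OT-1 and 2714, 2199 and 1132 in TG6, with F5 at 1743, 870 and 1823 (-2.37 ± 0.35, limma adjusted p = 9.2e-05). Bcl2l1, which encodes the protective Bcl-xL, was 385, 323 and 446 against 680, 534 and 1130 (-0.96 ± 0.20, adjusted p = 0.0029). The lines did not overlap in either gene, although TG6 replicate 3 was the lowest of TG6 for Bmf and the highest for Bcl2l1. Socs3, an inhibitor of cytokine receptors, was also lower in OT-1, at 398, 242 and 241 against 1074, 1060 and 411 (-1.44 ± 0.27, adjusted p = 0.0011).

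Several of the widest differences were close to presence against absence. Mme, the peptidase CD10, was 4641, 5062 and 5192 in OT-1 and was listed at 0, 3.58 and 1.39 in TG6 and at 15.9, 7.33 and 7.78 in F5. Of 50 tested genes within 5 Mb of Mme on chromosome 3, 4 were called (8%), against 10.1% of all genes with a known position, and without TG6 replicate 3 the shares were 22% and 27.6%. Kcnd2, a potassium channel of neurons, was listed at 0 in all OT-1 and F5 libraries and at 145, 101 and 104 in TG6. Prss2, a trypsinogen gene that lies within the Trb locus on chromosome 6, was likewise at 0 in OT-1 and at 130, 99.6 and 75.0 in TG6, and the homeobox gene Hoxc9 was at 0.970, 3.94 and 0 against 135, 125 and 127. Tmie, a membrane protein of inner ear hair cells, was 74.6, 70.2 and 92.9 in OT-1 and 1209, 1312 and 525 in TG6 (-3.56 ± 0.37, limma adjusted p = 9.3e-07). For each of these genes TG6 replicate 3 was on the side of its own group.

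RNA of other cell types was checked for the whole lists of markers. Marker sums of B cells were 8767 to 9425 in OT-1 and 6403 to 7121 in TG6, with Pax5 at 3 or less in all 6 libraries. Ighm alone held 8516 to 9198 and 6209 to 6905 of these sums. It was called higher in OT-1, a call kept in only 1 of the 6 fits that leave out 1 library. The sums of thymic epithelium markers were 1266 to 1569 and 1242 to 1289, with Foxn1, Krt5, Krt8, Krt14 and Cldn3 at 3 or less and Ly75 at 1182 to 1517. Markers of NK and innate lymphoid cells summed to 1004 to 1883 in OT-1 and 477 to 1002 in TG6, with Ncr1 at 3 or less, and Gata3 alone held 963 to 1851 and 437 to 969 of that. Markers of stroma and endothelium summed to 1968 to 2171 in OT-1 and 2599 to 2730 in TG6, with Col1a2, Col3a1, Pdgfra and Kdr at 3 or less. Most of that sum was Pecam1, the adhesion molecule CD31 that leukocytes also carry, at 1799 to 2019 and 2424 to 2614, which was lower in OT-1 (-0.40 ± 0.09, limma adjusted p = 0.0099), a call lost without TG6 replicate 1 or OT-1 replicate 1 (adjusted p = 0.052 and 0.057). Cdh5, an endothelial cadherin, was the other called member and was low, at 22.6, 6.26 and 11.1 against 1.01, 0 and 1.97 (2.81 ± 0.67, adjusted p = 0.010), a call lost without TG6 replicate 2 or OT-1 replicate 1 (0.072 and 0.064). Erythroid markers were highest in OT-1 replicate 3, at 1166 against 96.7 to 281 in the other 5 libraries. Myeloid markers summed to 194 to 265 and 162 to 294. Of 9 tested double-negative markers 1 was called, Notch3, which was lower in OT-1, at 307 to 534 against 842 to 2054 in TG6. The CD4 and regulatory T cell list stood at 942 to 1166 in OT-1, 1007 and 1114 in TG6 replicates 1 and 2 and 2182 in replicate 3. The part of these cells in the differences was not tested.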

How the data were processed

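RNA-seq libraries of sorted thymocytes were analysed as deposited, in 1 table of 26 libraries. Per the labels and the submitters' processing notes, the authors used Trimmomatic 0.32 for trimming, Bowtie2 2.3.2 with mm10 for alignment, RSEM 1.2.31 for estimated counts per gene and DESeq2 for size factors, by which the estimates were divided, so the deposited values are a normalized signal and not raw counts. Values were whole multiples of their commonest low value for only 42.4% to 44.2% of entries (within 0.01), so no count model was run. Genes with at least 10 in at least 2 libraries were kept and log2(value + 1) was fitted with limma 3.58.1 (R 4.3.3), with 9 group means, 17 residual degrees of freedom and a mean-variance trend. The fold changes of low genes are understated on this scale. Simulated data for the same groups, over 16372 genes, with known log2 changes gave calls in this comparison for 70% of 100 genes at a change of 1 and for 98% of 100 genes at a change of 2, with 12 unchanged genes called. The changed genes were drawn from genes that were not low in TG6, and no simulated library stood apart as TG6 replicate 3 did. These shares therefore do not hold for low genes or for the effect of that library. Alternatives left out each library, used fewer groups, or changed the pseudocount (0.1, 5), the filter, the scaling, the trend or the replicate block. The members and gene lists were chosen with earlier results of these data known. Named genes were, per direction, the 12 widest differences called in both fits with no overlap and a mean of at least 100, leaving out 4 higher and 9 lower TCR segments and symbols that name no gene product, up to 3 called members per list, the 6 widest called only without TG6 replicate 3, and 15 fixed genes. Further list members named in the text were chosen after their values were seen. Gene positions come from GENCODE on GRCm38 and promoter windows from RefSeq on GRCm38.p6. P-values treat every library as a separate replicate, since the series design calls the samples biological replicates. Whether libraries of different stages came from the same mouse is not stated, so the p-values cannot be read as the spread between mice alone.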

Additional observations from a re-analysis of the deposited data

Results flagged for a closer look

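The difference between OT-1 and TG6 was not the same at every stage. Tested as an interaction in limma, the difference at mature CD8SP differed from that at early positive selection in 687 genes (4.20% of 16372) and from that at late positive selection in 192 genes (1.17%), a count that was 532 without TG6 replicate 3. The values below are the log2 difference between lines at mature CD8SP minus that at early positive selection.

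For 3 receptors of the Type 17 and cytokine lists OT-1 had the higher mean at mature CD8SP and TG6 at early positive selection. Il17rc changed by 7.76 and Il17re by 5.41. Their early means were 144 in TG6 against 20.2 in OT-1 for Il17rc and 256 against 140 for Il17re, and at late positive selection OT-1 was already the higher line, at 89.1 against 4.25 and 69.9 against 12.6. The difference between lines at mature CD8SP minus that at late positive selection did not pass the test for Il17rc (1.80, limma adjusted p = 0.75) or Il17re (2.19, adjusted p = 0.058). Il18r1 changed by 3.58 from the early stage, from means of 54.9 in OT-1 and 61.6 in TG6 to 942 and 95.2, and by 3.16 from the late one (adjusted p = 0.0019).

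For 3 genes that were higher in OT-1 the gap was wider early: Mme changed by -2.79, Ccr8 by -2.42 and the olfactory receptor gene Olfr524 by -2.93. The mean of Mme in OT-1 went from 15457 at early positive selection through 7827 to 4965, while TG6 stayed at or near 0.

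For H2-Q5, H2-Q10, H2-Bl, Prss2 and Rpl36a-ps3, which were lower in OT-1 at mature CD8SP, the gap was wider at that stage than at early positive selection. H2-Q5 changed by -2.18, H2-Q10 by -1.63 and H2-Bl by -2.74. The mean of H2-Q5 in TG6 went from 650 through 1425 to 7006, while OT-1 had 201 at the first and 489 at the last of these stages. The trypsinogen gene Prss2 changed by -2.87. Rpl36a-ps3, a pseudogene that can share reads with its parent gene, changed by -8.32: its early means were 39.5 in OT-1 and 29.2 in TG6, with a TG6 library at 0, and at mature CD8SP it was listed at 0 in all OT-1 libraries and had a mean of 105 in TG6.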

How the results depend on the processing

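Leaving out 1 library moved the number of called genes between 734 and 4446, with 330 to 2454 higher and 404 to 1992 lower in OT-1. The top of each range came from leaving out TG6 replicate 3, and the others ran from 734 to 1195. The fit to the 6 libraries alone called 270 genes (120 higher, 150 lower), with fewer residual degrees of freedom, and that to the 9 mature CD8SP libraries 430 (184 and 246). Genes whose difference changed from early positive selection numbered 687, and 527 to 1153 when 1 library was left out, and from late positive selection 192, and 142 to 532, with 1153 and 532 without TG6 replicate 3. Scaling each library to its total called 1680 genes, of which 30.5% were higher in OT-1 against 47.9% in the fit reported, and it moved the median of all genes from -0.01 to -0.10. No direction of a called gene named by the rule changed. The 3 genes whose sign turned were not called in any of those fits: Cd69 (0.04) ran from -0.37 to 0.30 across fits without 1 library and was -0.0498 under total and -0.0171 under quantile scaling, Cd4 (-0.35) ran from -0.90 to 0.38, and Cxcr4 (0.05) ran from -0.32 to 0.40 and was -0.043 and -0.0134 under these scalings. Of the 125 named genes, 57 lost their call in the fit to the 6 libraries and 2 lost it without TG6 replicate 3, where 13 gained one. A fit with the replicate number as a block, without the 2 TG6 late libraries whose number was not given, called 1537 genes (737 and 800). Same-numbered OT-1 and TG6 libraries deviated together by only 0.020, 0.014 and 0.084 (Pearson r across genes), so the numbers were not taken as pairs. Why the counts moved was not tested where fewer libraries do not account for it. Depth limits genes with values near 10.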
